A study of Mus musculus with 8 samples.

Results

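A set of 10 immediate early response genes were followed in RNA sequencing data from mouse stomachs: Fos, Fosb, Jun, Junb, Egr1, Atf3, Ier2, Btg2, Zfp36 and Gadd45b. They were chosen by name as AP-1, EGR and other early genes, and all 10 were found among the 24481 named genes of the deposited table. The stomachs came from female wild-type mice of the inbred strain C57BL/6J, collected 3 days after removal of the adrenal glands (adrenalectomy) or 3 days after a sham operation. There were 4 samples in each group, adrenalectomy replicates 1 to 4 and sham replicates 1 to 4, and the mice of both groups had thus been operated on. The labels used here give neither the age of the mice nor whether each sample was a separate animal. P-values therefore reflect only how far these samples lie apart, which may be technical. The study concerns endogenous glucocorticoids and gastric inflammation, and the comparison asks which transcripts differ once the adrenal source of glucocorticoids is gone. Values are the deposited log2 values, normalized between samples, a linear value is that value taken out of the log2 scale, and sequencing depth is unknown because the table holds no counts.

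Immediate early genes are transcribed within minutes of a stimulus, without new protein synthesis, when kinase cascades activate transcription factors already bound at their promoters, such as serum response factor and CREB. Their transcripts are short-lived, and many of their proteins are transcription factors or feedback regulators. FOS and JUN proteins pair through leucine zippers to form AP-1. In the stomach, as in other tissues, early genes respond to growth factors, injury and inflammation, and also to handling of tissue. Several, Zfp36 among them, are known to be regulated by the glucocorticoid receptor in other tissues.

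One of the 10 genes rose after adrenalectomy. Btg2 was 1.18-fold higher (adjusted p = 0.0126, limma), against 0.93% of the 16889 tested genes called higher and 1.71% called in either direction. Junb and Zfp36 were also higher in all 4 adrenalectomy samples than in any sham sample, but did not pass the test. Fos, Fosb, Jun, Atf3, Egr1, Ier2 and Gadd45b overlapped between the groups. None of the 10 fell, against 0.782% of tested genes called lower.

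The promoters of 4 of these genes, Btg2, Zfp36, Fos and Fosb, are shown as examples with motif matches. Those of Junb, Atf3 and Gadd45b also had matches and are not shown, and that of Jun had none. Btg2 passed the test, and Zfp36 had a CArG box within the 250 bases searched. Fos and Fosb had a wide spread between samples. Each promoter is the 250 bases before the start of the gene, 5′ to 3′, from RefSeq on GRCm38.p6, in lower case with motif matches in capitals. 
Btg2 promoter, chr1:134079156-134079405, minus strand: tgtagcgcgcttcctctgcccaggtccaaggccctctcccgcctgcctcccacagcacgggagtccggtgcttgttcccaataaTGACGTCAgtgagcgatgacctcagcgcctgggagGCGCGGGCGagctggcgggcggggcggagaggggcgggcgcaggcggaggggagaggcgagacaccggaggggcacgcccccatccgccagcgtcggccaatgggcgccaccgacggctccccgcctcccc
Zfp36 promoter, chr7:28379229-28379478, minus strand: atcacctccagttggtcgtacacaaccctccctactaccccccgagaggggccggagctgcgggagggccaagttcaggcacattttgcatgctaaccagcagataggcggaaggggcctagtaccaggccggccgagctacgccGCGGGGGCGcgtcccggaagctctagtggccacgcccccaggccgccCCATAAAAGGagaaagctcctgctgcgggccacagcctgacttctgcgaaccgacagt
Fos promoter, chr12:85473640-85473889, plus strand: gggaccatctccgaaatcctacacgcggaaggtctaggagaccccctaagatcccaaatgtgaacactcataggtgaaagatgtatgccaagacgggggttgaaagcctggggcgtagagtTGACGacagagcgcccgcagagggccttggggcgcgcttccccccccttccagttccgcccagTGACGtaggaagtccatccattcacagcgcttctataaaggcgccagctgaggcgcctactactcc
Fosb promoter, chr7:19310046-19310295, minus strand: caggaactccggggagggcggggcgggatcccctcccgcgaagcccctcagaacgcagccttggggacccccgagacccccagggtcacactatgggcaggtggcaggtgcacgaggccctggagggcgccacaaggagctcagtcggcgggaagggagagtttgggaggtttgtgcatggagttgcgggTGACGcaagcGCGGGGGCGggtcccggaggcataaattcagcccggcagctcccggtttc

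The RefSeq table listed a promoter for 8 of the 10 genes, all except Egr1 and Ier2. The motifs searched on both strands were TGACGTCA, the site of CREB and ATF factors, TGACG, its shorter form, which also lies inside it, TGANTCA, the AP-1 site, GCGNGGGCG, the site of EGR factors, AGAACA and TGTTCT with any 3 bases between them, a palindromic glucocorticoid receptor site, and the CArG box of serum response factor. TGACG was present in 5 of the 8 windows, those of Fos, Fosb, Junb, Atf3 and Btg2, and in 17.9% of 27025 promoter windows of the same length. The full TGACGTCA was present in Btg2 alone of the 8, its first base lying 166 bases before the start, and in 1.62% of all windows. GCGNGGGCG was present in 4 of the 8, those of Fosb, Btg2, Zfp36 and Gadd45b, and in 4.65% of all windows. The CArG box in Zfp36 began 58 bases before the start, and 1.4% of all windows held one. No match to TGANTCA or to the palindromic glucocorticoid receptor site was found in these 8 windows, and 6.87% and 0.0037% of all windows held one. Sites outside these windows, and the promoters of Egr1 and Ier2, were not searched. These matches are descriptions of letters, not of factor binding.

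The early genes were also short. In the GENCODE M21 annotation their median span from first to last exon base was 3427 bases, against 21479.5 bases for the 16544 tested genes with an annotation. Atf3 was the exception, with a span of 47744 bases. Most were abundant. Per kilobase of exon, the linear deposited value in sham samples was highest for Btg2, at 4490, followed by Junb at 4170, Fos at 2740, Jun at 2570, Ier2 at 2280, Zfp36 at 1130, Atf3 at 957, Gadd45b at 637, Egr1 at 467 and Fosb at 95.3, with a median of 409 over tested genes. Neighbours in this order were often not separated by their spread. Fos ranged from 2270 to 3560 per kilobase in the sham samples, which covers the range of Jun, from 2410 to 2790, and overlaps that of Ier2, from 2070 to 2580. Atf3, from 625 to 1410, covered Zfp36 and overlapped Gadd45b, whereas Fosb, at most 140, stayed below Egr1, at least 425.

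Fos encodes the founding member of the FOS family of AP-1 proteins. In sham replicates 1 to 4 its log2 value was 12.87, 12.31, 12.56 and 12.23, and in adrenalectomy replicates 1 to 4 it was 12.18, 12.76, 12.61 and 12.63. The highest value was in a sham sample and the lowest in an adrenalectomy sample, and the groups overlapped over nearly their whole range. The log2 difference, here and below adrenalectomy minus sham, was 0.05 ± 0.17 (SE, adjusted p = 0.894, limma), with a 95% interval from -0.33 to 0.43. The sign turned without sham replicate 2, sham replicate 4 or adrenalectomy replicate 2, each left out in turn, with values of -0.012, -0.040 and -0.023.

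Fosb, a second FOS family gene with much lower expression, stood at 9.05, 8.45, 8.64 and 7.84 in sham replicates 1 to 4 and at 8.51, 8.62, 8.90 and 8.61 after adrenalectomy. Both the highest and the lowest value were in sham samples. The log2 difference was 0.17 ± 0.23 (SE, adjusted p = 0.715, limma), and it was -0.049 without sham replicate 4.

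Jun, whose protein pairs with FOS proteins in AP-1, stood at 13.12, 12.95, 13.04 and 12.91 in sham samples and at 12.87, 13.09, 12.95 and 12.89 after adrenalectomy. It was the only one of the 10 genes with a lower mean after adrenalectomy, and the groups overlapped. The log2 difference was -0.05 ± 0.06 (SE, adjusted p = 0.648, limma), with a 95% interval from -0.19 to 0.08. It moved from -0.015 without sham replicate 1 to -0.099 without adrenalectomy replicate 2.

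Junb encodes a JUN family protein that binds the same sites and can oppose JUN. Its values were 12.93, 12.78, 12.89 and 12.93 in sham samples and 13.04, 13.07, 13.03 and 13.01 after adrenalectomy. All 4 adrenalectomy samples were above all 4 sham samples, and they lay closer together. The log2 difference was 0.16 ± 0.04 (SE, adjusted p = 0.0717, limma), which did not pass, and the 95% interval ran from 0.08 to 0.24. Junb passed in 1 of 20 alternative settings, with limma's array weights (adjusted p = 0.0369), and its adjusted p reached 0.837 in another.

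Atf3 encodes a stress-induced leucine zipper protein that pairs with JUN proteins. In sham replicates 1 to 4 it stood at 11.57, 11.03, 11.04 and 10.39, and after adrenalectomy at 11.58, 11.24, 11.65 and 11.26. Sham replicate 1 was as high as the higher adrenalectomy samples, and sham replicate 4 was far below all others. The log2 difference of 0.43 ± 0.23 (SE, adjusted p = 0.345, limma) was the largest of the 10 in size, and its 95% interval ran from -0.10 to 0.95. Without sham replicate 4 it was 0.22.

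Egr1 encodes a zinc finger transcription factor that many growth factors induce. It stood at 11.10, 10.90, 11.00 and 11.14 in sham samples and at 10.75, 11.35, 11.26 and 11.02 after adrenalectomy. The sham values lay inside the range of the adrenalectomy values. The log2 difference was 0.06 ± 0.13 (SE, adjusted p = 0.812, limma), and it was -0.022 without adrenalectomy replicate 2.

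Ier2, which encodes a nuclear protein induced by growth factors, stood at 11.94, 11.62, 11.75 and 11.75 in sham samples and at 11.85, 11.88, 11.92 and 11.80 after adrenalectomy. The groups overlapped because sham replicate 1 was the highest of the 8 samples. The log2 difference was 0.10 ± 0.06 (SE, adjusted p = 0.416, limma). It was 0.16 without sham replicate 1, 0.052 without sham replicate 2 and 0.0037 with the skeletal muscle and squamous score described below.

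Btg2 encodes an antiproliferative protein that recruits the CCR4-NOT deadenylase, which shortens the tails of messenger RNAs. It stood at 13.63, 13.61, 13.53 and 13.58 in sham replicates 1 to 4 and at 13.82, 13.82, 13.86 and 13.80 in adrenalectomy replicates 1 to 4. The groups were well apart, and the gap between them was wider than the range of either. From 13.59 ± 0.04 (SD, n = 4) in sham samples it rose to 13.83 ± 0.03 (SD, n = 4), a log2 difference of 0.24 ± 0.03 (SE, adjusted p = 0.0126, limma) with a 95% interval from 0.17 to 0.30. Btg2 was called with each of the 8 samples left out in turn, with log2 differences of 0.22 to 0.25. It was called in 16 of the 20 alternatives. Settings that ended the call included a score of skeletal muscle and squamous markers as a covariate (0.21, adjusted p = 0.102), a score of smooth muscle markers as a covariate (0.28, adjusted p = 0.515), and dropping 3 samples (sham 2, sham 3 and adrenalectomy 1) at once (0.22, adjusted p = 0.311), a setting added with the data in view. Over the 20 alternatives its adjusted p ranged from 0.00716 to 0.515.

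Markers of other cells also separated the groups. The summed linear value, in units of 1000, of 11 tested leukocyte markers of 12 listed was 13.1 to 14.1 in sham samples and 14.5 to 15.6 after adrenalectomy, and that of 10 of 10 smooth muscle markers was 540 to 557 and 464 to 496. Of the 11 leukocyte markers, 8 had a higher mean after adrenalectomy, against 49.5% of tested genes. Kit, S100a8 and S100a9 had a lower mean. Kit, the most abundant of the 11, overlapped, at 12.54 to 12.80 in sham samples and 12.48 to 12.68 after adrenalectomy. The sum of 8 tested pancreas markers of 10 listed was 13.0 to 15.6 in sham samples and 11.6 to 12.4 after adrenalectomy. Of the 8, only Amy2a5 did not overlap, at 11.62 to 11.88 in sham samples and 10.09 to 11.45 after adrenalectomy. That is 1 gene lower, against 6.13% of tested genes not overlapping and lower. Cpa1 and Cela3b were below the filter on low values. Pnlip and Ctrb1 lay near it, at no more than 3.70 and 3.93 on the log2 scale in any sample. Cd3e, a defining T cell marker, was below the filter on low values. The part of these markers in the Btg2 difference was not tested, and in whole stomach RNA fewer cells of a type cannot be told apart from less RNA per cell. The smooth muscle score separates the groups, so in that covariate fit it and the operation cannot be told apart. In it the log2 difference was 1.37 for Atf3, 1.18 for Fosb, 0.42 for Fos, 0.40 for Gadd45b and 0.31 for Zfp36, none of them called.

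Zfp36 encodes tristetraprolin, which binds AU-rich elements in messenger RNAs, including that of Tnf, and speeds their decay. Its values were 11.95, 11.92, 11.96 and 11.94 in sham samples and 12.07, 12.21, 12.13 and 11.97 after adrenalectomy. The sham samples were tightly grouped, and adrenalectomy replicate 4 lay just above them. The log2 difference was 0.15 ± 0.05 (SE, adjusted p = 0.145, limma), and it was not called in any of 20 alternatives. Gadd45b, whose protein activates stress kinases upstream of p38 and JNK, stood at 9.67, 9.93, 9.74 and 9.75 in sham samples and between 9.83 and 10.03 after adrenalectomy. The overlap came from sham replicate 2 and adrenalectomy replicate 4. The log2 difference of Gadd45b was 0.18 ± 0.07 (SE, adjusted p = 0.199, limma).

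**Figure D1:**
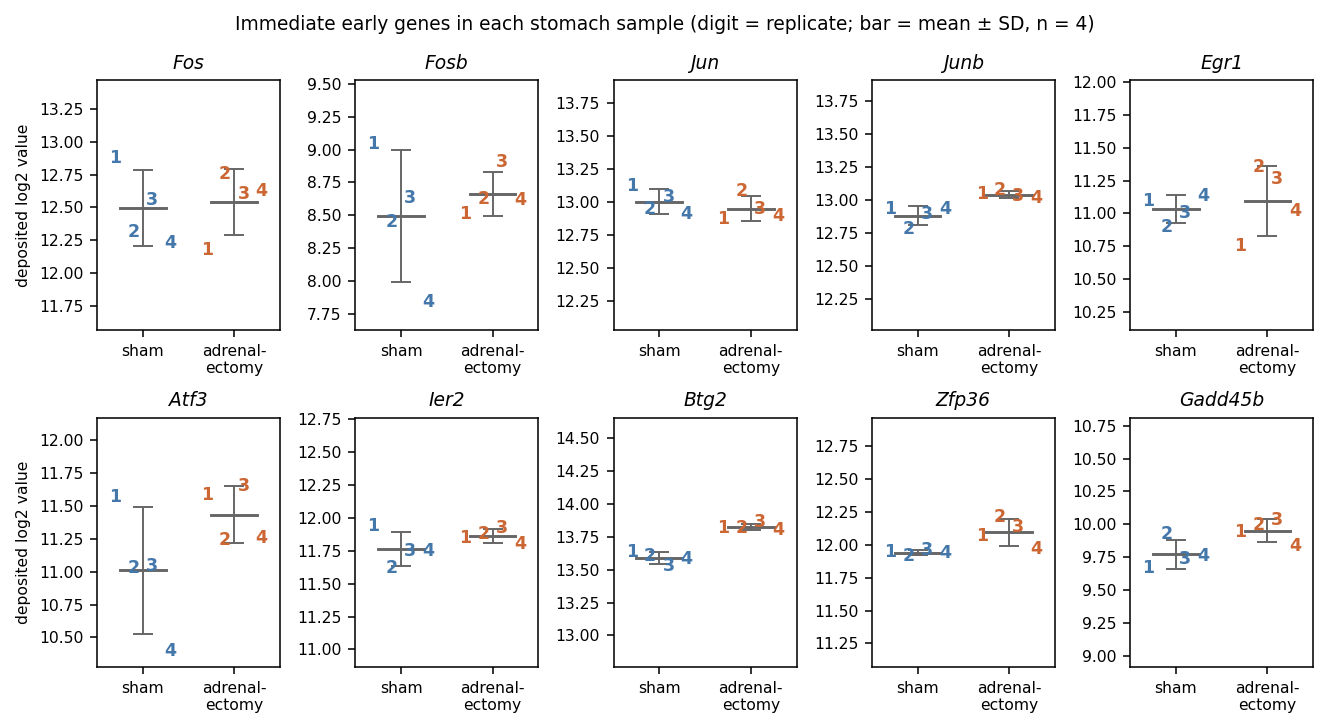
Deposited log2 value of each of the 10 early genes in each sample, with sham samples in blue and adrenalectomy samples in orange, digits for the replicate number, and horizontal bars with error bars for the mean ± SD of 4 samples. All panels span the same height on the log2 scale; Btg2 separates the groups with little spread, whereas Fosb and Atf3 spread widely, down to 7.84 and 10.39 in sham replicate 4.

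Of the 10 genes, 9 had a higher mean after adrenalectomy, against 49.5% of tested genes, and the median log2 difference was 0.16, against -0.00088 over all tested genes. At an unadjusted p under 0.05, limma counted 4 of the 10, Btg2, Junb, Zfp36 and Gadd45b, against 19.2% of tested genes. The groups did not overlap for 3 of the 10, all higher, against 6.3% of tested genes not overlapping and higher, 6.13% lower and 12.4% in either direction. An exact two-sided permutation test of each gene alone gave Btg2, Junb and Zfp36 a p of 0.0286, the smallest that 4 against 4 samples can give, Gadd45b a p of 0.0571, and the other 6 genes p-values from 0.143 to 0.857. These p-values are not adjusted, and the 10 genes share the same 8 samples.

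**Figure D2:**
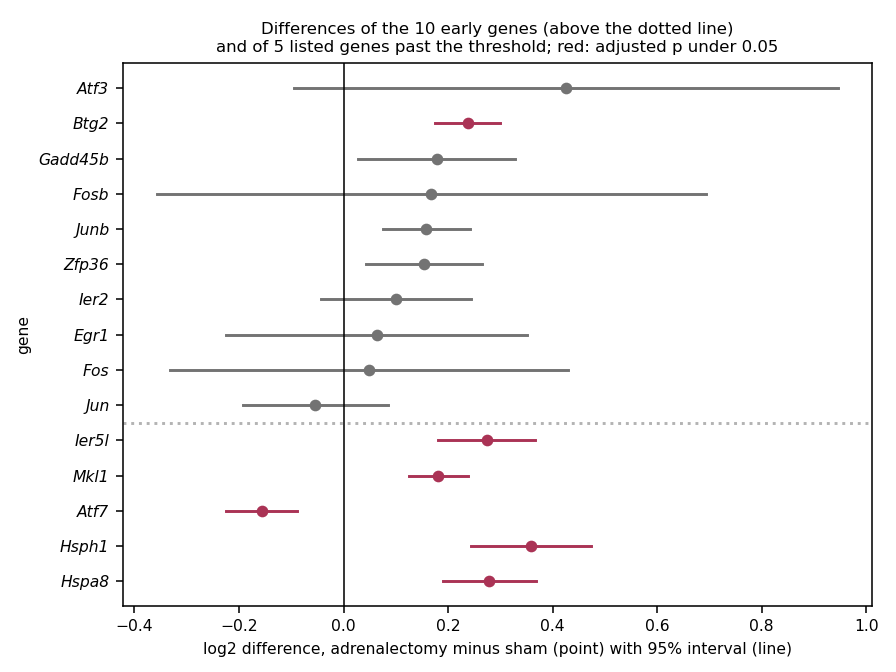
Log2 difference, adrenalectomy minus sham (x axis), with its 95% interval from limma, for the 10 early genes above the dotted line and for 5 genes of related lists that passed the threshold below it; red marks an adjusted p under 0.05. Btg2 at 0.24 is the only red point of the 10, and the intervals of Atf3, Fosb, Fos and Egr1 are wide and cross 0.

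The early genes differed widely in how much they varied between samples of a group. The SD within groups on the log2 scale was 0.37 for Fosb, 0.37 for Atf3, 0.27 for Fos and 0.20 for Egr1, against a median of 0.060 over all tested genes. Only 1.45% of the 4134 tested genes within 1 log2 unit of the mean of Fos had a larger SD, and the share was 1.58% for Atf3, 4.47% for Egr1 and 7.29% for Fosb. Jun and Ier2 were in between, with SDs of 0.096 and 0.099, and larger SDs in 15.3% and 15.7% of genes of like mean. Junb at 0.053 was near the middle, with 46.9%, and Btg2 at 0.036 was among the steadier genes, with 76%. Fosb and Atf3 spread more in sham samples, with SDs of 0.50 and 0.48, than after adrenalectomy, with 0.17 and 0.21, whereas Egr1 and Zfp36 had SDs of 0.11 and 0.020 in sham samples and 0.27 and 0.10 after adrenalectomy. These differences in spread were not tested. Without counts, the part of sequencing depth in these spreads is unknown.

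**Figure D3:**
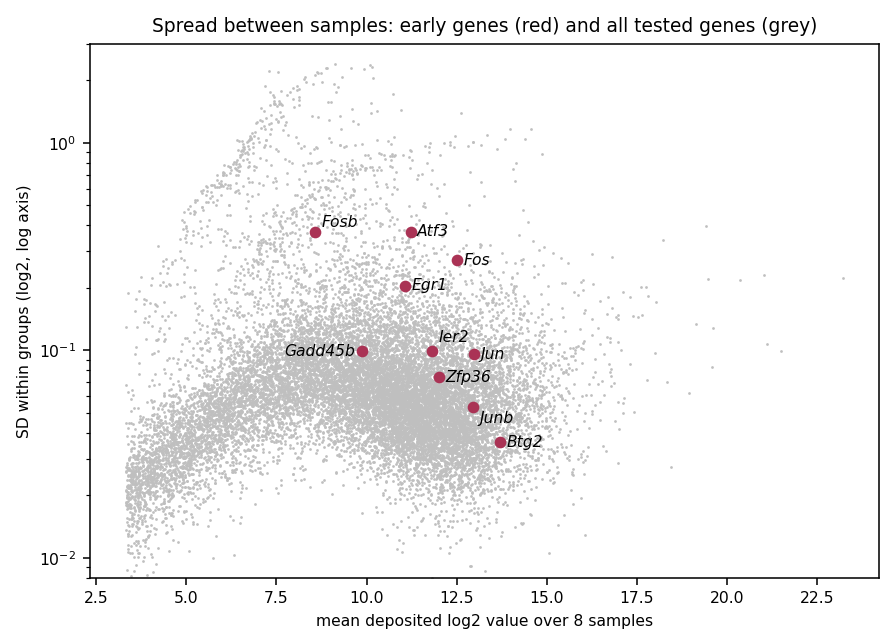
SD within groups on the log2 scale (y axis, logarithmic) against the mean deposited log2 value over the 8 samples (x axis) for all 16889 tested genes in grey and the 10 early genes in red. Fos, Atf3, Fosb and Egr1 lie at the upper edge of the cloud, and Btg2, at an SD of 0.036, lies in its lower part.

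With 10 genes and 4 samples in a group, several genes must have their highest or lowest value in the same sample. The counts below were not tested, and the share of all tested genes for the same sample is given with them. In the sham group, replicate 1 held the highest value for 6 of the 10 genes, Fos, Fosb, Jun, Atf3, Ier2 and Btg2, against 31.1% of all tested genes, and replicate 4 held the lowest for 4, Fos, Fosb, Jun and Atf3, against 23.7%. Sham replicate 2 held the lowest for 4 others, Junb, Egr1, Ier2 and Zfp36, against 24.8%. In the adrenalectomy group, replicate 1 held the lowest value for Fos, Fosb, Jun and Egr1, against 26.1% of tested genes, and replicate 4 for the 5 genes Junb, Ier2, Btg2, Zfp36 and Gadd45b, against 24.9%. Adrenalectomy replicate 2 held the highest for Fos, Jun, Junb, Egr1 and Zfp36, against 21.5%, and replicate 3 for Fosb, Atf3, Ier2, Btg2 and Gadd45b, against 26.5%. Sham replicate 1 was also the highest sham sample for 19 of 34 other early genes, among them Klf4, Klf6, Areg, Hbegf and Socs3, and sham replicate 4 was the lowest for 15 of the 34.

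Correlations over the 8 samples were computed for all 45 pairs of the 10 genes, with exact two-sided permutation of the pairings. None passed with adjustment over the 45 pairs, and 9 had an unadjusted p under 0.05 by Pearson's r. Pairs with Btg2, Junb or Zfp36 are not given a pooled correlation, because these genes separate the groups. Among the 21 other pairs, 18 had a positive r and 3 an unadjusted p under 0.05. These pairs share genes and samples and are not independent. The share of positive pairs among all tested genes was not computed, so 18 of 21 is a description only. Fosb and Atf3 had Pearson's r = 0.875 (exact permutation p = 0.0111, adjusted p = 0.181) and Spearman's rho = 0.619 (exact permutation p = 0.115, adjusted p = 0.345). The r of this pair fell to 0.535 without the 2 samples farthest from the median of Fosb, so it rests in part on them, and was 0.911 for deviations from the group means. Fos and Jun had r = 0.788 (exact permutation p = 0.0258, adjusted p = 0.181) and rho = 0.738 (exact permutation p = 0.0458, adjusted p = 0.258), with r = 0.658 without the 2 farthest samples and 0.867 for deviations from the group means. Fos and Fosb had r = 0.75 (exact permutation p = 0.0208, adjusted p = 0.181) and rho = 0.738 (exact permutation p = 0.0458, adjusted p = 0.258), with r = 0.735 without the 2 farthest samples and 0.752 for deviations. The 3 negative values were those of Jun and Gadd45b, with r = -0.30 (exact permutation p = 0.461, adjusted p = 0.715), and 2 further pairs. Egr1 and Atf3 had r = -0.051 (exact permutation p = 0.904, adjusted p = 0.904), and Fos and Gadd45b had r = -0.16 (exact permutation p = 0.691, adjusted p = 0.797).

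**Figure D4:**
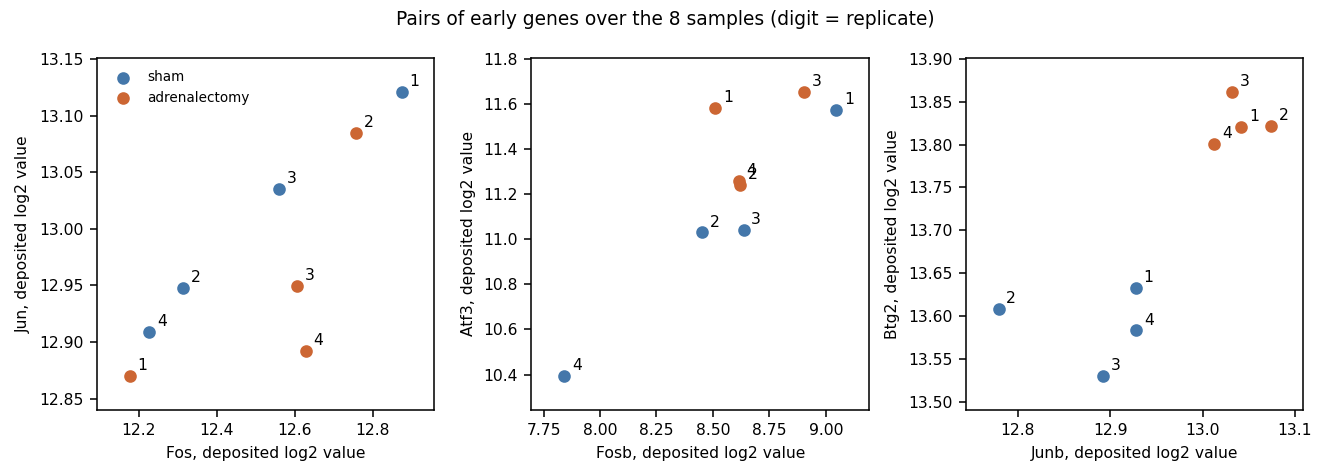
Deposited log2 values of Fos and Jun, of Fosb and Atf3 and of Junb and Btg2, with 1 point per sample, blue for sham and orange for adrenalectomy, labelled with the replicate number. In the first 2 panels the groups are mixed along the trend, and in the third they form separate clusters with no overlap on either axis.

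**Figure D5:**
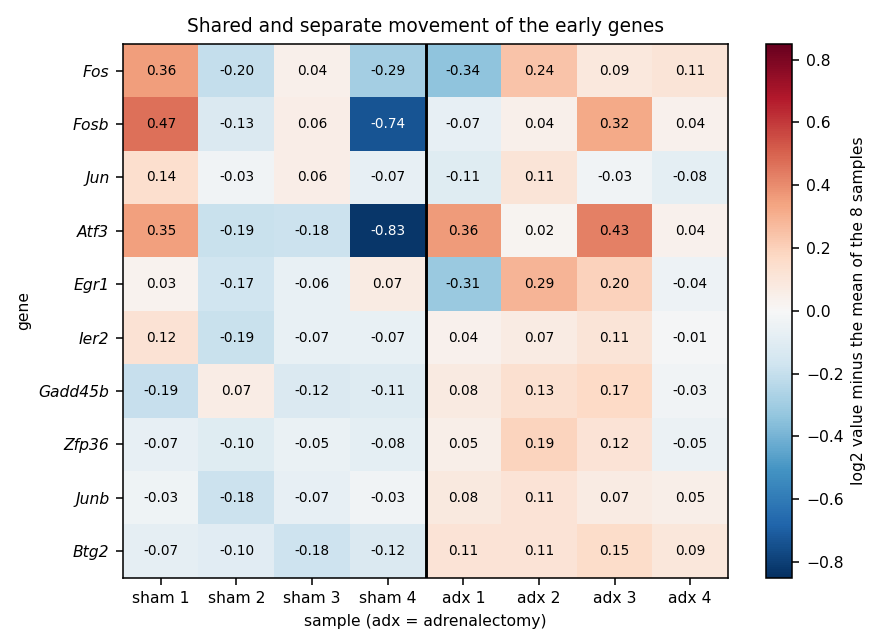
Log2 value of each early gene minus its mean over the 8 samples, with sham samples left of the line and adrenalectomy samples (adx) right of it. Fos, Fosb, Jun and Atf3 are all positive in sham 1 and negative in sham 4, whereas Btg2, Junb and Zfp36 change colour at the line apart from -0.05 for Zfp36 in adx 4.

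The samples differed in other RNA as well. The mean log2 value of 10 liver markers was 15.03 in adrenalectomy replicate 1, 12.61 in replicate 2, 11.57 in replicate 3 and 10.48 in replicate 4. In the sham group it was 12.49 in replicate 4, the sample with the lowest Fos, Fosb, Jun and Atf3, and 10.37 to 10.42 in the others. Alb, the defining liver marker, was 14.16 in sham replicate 4 against 8.79 to 9.06 in the other sham samples. Sham replicates 2 and 3 had summed linear values, in units of 1000, of 229 and 213 for 10 squamous epithelium markers and 18.2 and 17.9 for 10 skeletal muscle markers, against 56.6 and 94.4 and 4.84 and 4.64 in sham replicates 1 and 4. After adrenalectomy these sums were 29.2 to 113 and 4.06 to 4.28, so the skeletal muscle sum also separated the groups. The mean log2 value of the skeletal muscle markers overlapped, at 7.47 to 9.86 in sham samples and 7.37 to 7.51 after adrenalectomy. Stomach epithelium markers, all 12 of them tested, had a mean log2 value of 18.58 in sham replicate 1, the sample with the highest Fos, Fosb, Jun and Ier2 of all 8, against 18.35 to 18.42 in the other sham samples and 18.42 to 18.50 after adrenalectomy. The 12 markers did not move together. Muc5ac, Gkn1, Gkn2, Tff1, Tff2, Muc6, Epcam and Cdh1 were highest of the sham group in sham replicate 1. Tff2 was 17.38 there and 16.51 to 16.68 in the other sham samples. Atp4a, Atp4b and Pgc were lowest of the sham group there, at 19.50, 18.26 and 22.97, and Gif lay between. The summed linear value of the 12, in units of 1000, was 17700 in sham replicate 1 and 17500 to 20600 in the other sham samples. After adrenalectomy it was 16900 to 18000. The part of these in the movement of the early genes was not tested.

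As a check of the operation, Per1, Klf9, Pdk4 and Fkbp5, known glucocorticoid targets, fell by 1.04, 0.68, 0.85 and 1.03 on the log2 scale (adjusted p = 0.00500, 0.00717, 0.00825 and 0.0431, limma). Tsc22d3, Sgk1 and Zbtb16, also known targets, differed by -0.24, -0.41 and -0.42 without passing (adjusted p = 0.102, 0.107 and 0.398). Dusp1, the other gene of this check, differed in the opposite direction, by 0.16 (adjusted p = 0.574, limma). Sham replicate 1, the sham sample with the highest Fos, Fosb, Jun and Atf3, had the lowest Fkbp5 of the sham group, at 11.98 against 12.66 to 12.85, and adrenalectomy samples ranged from 11.39 to 11.76. This sham replicate was the lowest of its group for 6 of the 8 genes of the check, against 29.5% of tested genes. Per1 was lowest in sham replicate 2 and Dusp1 in sham replicate 4. Fkbp5 was called in 6 of 20 alternatives and Per1 in 17.

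Calls among relatives and partners of the early genes stand beside 1.71% of all tested genes called in either direction. Among 16 other AP-1, ATF and MAF genes, Atf7, a leucine zipper factor, fell by 0.16 (adjusted p = 0.0476, limma; 5 of 20 alternatives) and none rose. Atf6 differed by -0.11 (adjusted p = 0.105) and Batf2 by 0.21 (adjusted p = 0.149), and the median of the 16 was -0.01. Fosl2, abundant at a sham mean of 14.04, differed by 0.12 ± 0.07 (SE) and was named here with its values known. Of 8 EGR and NR4A factors and their NAB corepressors, 7 were tested, Egr4 being below the filter. None was called by limma, and none had an unadjusted p under 0.05, against 19.2% of tested genes. Egr2 differed by 0.06 (adjusted p = 0.339) and Egr3 by -0.21 (adjusted p = 0.494). Nr4a1, also named with its values known, was at 10.03, 9.57, 9.82 and 9.61 in sham samples and 10.20, 9.84, 10.51 and 9.54 after adrenalectomy.

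Among 34 other early genes, Ier5l, an IER family gene, rose by 0.27 ± 0.04 (SE, adjusted p = 0.0270, limma). It stood at 8.37, 8.42, 8.37 and 8.49 in sham samples and at 8.68, 8.71, 8.68 and 8.68 after adrenalectomy, with no overlap. It was called in 8 of 20 alternatives and in 2 of the 8 that left out a sample. Nfil3, a leucine zipper repressor, differed by 0.36 (adjusted p = 0.0939) and Arc, a neuronal early gene, by -0.31 (adjusted p = 0.133). The median of the 34 was -0.01, and 15 of them had a higher mean after adrenalectomy, against 49.5% of tested genes.

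Of the signalling genes upstream and the feedback genes downstream, 1 passed the test, against 1.71% of all tested genes called. Of 11 genes for SRF, ELK and CREB factors and their coactivators, Mkl1, a coactivator of serum response factor, rose by 0.18 ± 0.02 (SE, adjusted p = 0.0223, limma; 11 of 20 alternatives), from 12.17, 12.24, 12.18 and 12.17 in sham samples to 12.34, 12.36, 12.40 and 12.38. Elk4 differed by -0.14 (adjusted p = 0.143) and Creb1 by -0.07 (adjusted p = 0.288). None of 17 kinases of the MAP kinase pathways was called by limma, with 6 at an unadjusted p under 0.05, against 19.2% of tested genes. The groups did not overlap for 7 of the 17, 5 lower and 2 higher, against 12.4%. Rps6ka5, the kinase MSK1, which phosphorylates CREB and histone H3, differed by -0.23 (adjusted p = 0.0527) and Map2k7 by -0.08 (adjusted p = 0.0768). None of 16 phosphatases and sprouty-type inhibitors of MAP kinase signalling was called. Of these, 3 had an unadjusted p under 0.05, against 19.2% of tested genes. Spred2 differed by -0.15 (adjusted p = 0.117) and Spry4 by 0.13 (adjusted p = 0.232), and Dusp1, a phosphatase known as a glucocorticoid target, by 0.16 ± 0.15 (SE, adjusted p = 0.574, limma).

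None of the relatives and partners of Btg2, Zfp36 and Gadd45b passed, against 1.71% of all tested genes called. Among 9 BTG, TOB and deadenylase genes none was called by limma. Of the 9, 2 had an unadjusted p under 0.05, against 19.2% of tested genes. Btg1, the closest relative of Btg2, differed by -0.11 (adjusted p = 0.190), and Cnot6l, a catalytic deadenylase subunit, by -0.13 (adjusted p = 0.0881). Of 5 ZFP36 relatives and other AU-rich element binding proteins none was called or had an unadjusted p under 0.05, against 19.2% of tested genes. Zfp36l1 was at 0.18 (adjusted p = 0.263) and Elavl1, which encodes the stabilising protein HuR, at 0.05 (adjusted p = 0.275). The GADD45 relatives Gadd45a and Gadd45g differed by -0.01 and -0.04 (adjusted p = 0.940 and 0.791). Gadd45gip1, which shares the name because its protein binds GADD45 proteins and is no family member, differed by 0.12 (adjusted p = 0.123).

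Heat shock genes, which like early genes respond to stress and to tissue handling, rose in 2 of 10 members, against 0.93% of tested genes, and 5 of the 10 were higher with no overlap, against 6.3%. Hspa8, which encodes the constitutive chaperone HSC70, rose by 0.28 ± 0.04 (SE, adjusted p = 0.0224, limma) and Hsph1, which encodes a nucleotide exchange factor of HSP70 proteins, by 0.36 ± 0.05 (SE, adjusted p = 0.0224, limma). They were called in 9 and 10 of 20 alternatives. Dnaja1 differed by 0.16 (adjusted p = 0.0613) and Bag3 by 0.10 (adjusted p = 0.0859). Hspa1a, Hspa1b and Dnajb1 overlapped between the groups and differed by 0.14, 0.16 and -0.06 (adjusted p = 0.611, 0.546 and 0.548, limma). They were named with their values known. The part of stress or handling in these values was not tested. Hspb1, named with its values known, differed by -0.50 (adjusted p = 0.322, limma), with its highest values, 13.03 and 13.07, in sham replicates 2 and 3, and the median of the list was 0.12.

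Over the 8 samples, the genes outside these lists whose centred log2 values lay closest to the mean of the 10 early genes were Elf4, an ETS family transcription factor, Ahrr, a repressor of the aryl hydrocarbon receptor, Ttc39a, Nlrc4, an inflammasome sensor, Adam10, a membrane sheddase, Galnt12, Csk, Creb5, Itpr3 and Epb41l4b. Their mean absolute difference from the early genes' mean was 0.029 for Elf4 and rose to 0.039 for Epb41l4b, against a median of 0.12 over all tested genes. The mean of the early genes itself stood, relative to its average, at 0.11, -0.12, -0.06 and -0.23 in sham replicates 1 to 4 and at -0.01, 0.13, 0.16 and 0.01 after adrenalectomy, so the groups overlapped.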

How the data were processed

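Stomach RNA was made into TruSeq libraries and sequenced on a NextSeq500 instrument, per the labels' protocols. The submitters' processing notes name the build mm9 and the tools DESeq2, featureCounts, STAR and Trim Galore, without versions. The values that the authors deposited are log2 values, normalized between samples. They hold no counts, so depth is unknown. Some low genes hardly vary between samples, as after a regularized log, with Egr4 at -0.141 to -0.132. Shrinkage of this kind would understate differences in low genes, and it was not tested. Of 16 sample columns, 8 were not used, and 26 rows with dates for names were left out.

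The 16889 genes with a mean linear value of at least 10 were tested (7592 were not), in R 4.3.3 by limma 3.58.1, using the intensity trend and no covariate besides the operation. Two-sided p-values had Benjamini-Hochberg adjustment over all tested genes and a threshold of 0.05. Correlations used Python 3.11.15. The code was tested on simulated data.

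The 10 genes and the other lists were chosen with earlier results of these data known. Named genes were the 10, every gene of another list past the threshold, the 2 others of each list with the smallest p, the genes of the check of the operation, and the 10 with the closest profile. The listed name Auf1 is an alias of Hnrnpd, which is on the same list, and was not counted. Lengths (GENCODE M21) and promoters (RefSeq) are on GRCm38, not the authors' build. The 20 alternatives changed the filter, scaling, variance, block, weights or covariates, or left out each of the 8 samples or 3 at once.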

Additional observations from a re-analysis of the deposited data

Results flagged for a closer look

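One sample stood apart in its group among the 38 groups of 4 samples checked, 2 for each of 19 genes. Ier5l was 8.71 in adrenalectomy replicate 2 and 8.68 in each of the other 3 adrenalectomy samples, a gap that took most of a very narrow range. Chance flags about 1 in 20 groups.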

How the results depend on the processing

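The count of 289 called genes was 170 with no filter, 156 with samples recentred on their median, 118 with the liver score as a covariate and 624 with array weights. It was 0 by limma with the skeletal muscle and squamous score, 0 with the smooth muscle score and 0 with 3 samples left out together, while an unadjusted p under 0.05 was found for 2271, 1327 and 1822 genes. It was 27 to 633 with each sample left out in turn. Of the 10 early genes, 2 were called with array weights, Btg2 and Junb, and 0 with the skeletal muscle and squamous score, 0 with the smooth muscle score and 0 without the 3 samples, with 4, 5 and 3 at an unadjusted p under 0.05. Leaving out each sample in turn kept the count at 1. With replicate number as a block, 4 genes and 0 of the 10 were called (Btg2 adjusted p = 0.129), with 2803 and 5 at an unadjusted p under 0.05. Deviations of same-numbered samples correlated at -0.289, 0.448, -0.118 and -0.635 over genes. These values cannot show whether same-numbered samples shared a litter, day or batch, which the labels do not say. The sign turned for Fos (-0.041) and Egr1 (-0.022) with the skeletal muscle and squamous score and for Jun (0.13) with the smooth muscle score. Over the samples left out in turn, the log2 difference was -0.040 to 0.18 for Fos, -0.049 to 0.35 for Fosb and -0.022 to 0.18 for Egr1. The causes were not tested. Btg2, Junb, Zfp36, Gadd45b, Atf3 and Ier2 kept a higher mean in all 20 alternatives. No pair of genes passed in any of the 10 alternatives for the correlations.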
